A study of Capra hircus with 3 samples.

Results

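Barcodes that carried transcripts of the cytokine gene IL26 or of TRDC, the constant region of the T cell receptor delta chain, were studied in droplet single-cell RNA libraries labelled as testis of goat (Capra hircus) fetuses at E85, E105 and E125 (embryonic days), with 1 library per stage. By its title the series is about germ and somatic cells while male germ cells are out of the mitotic cycle. Testes had been digested with enzymes to single cells, and the labels give male sex for all 3 libraries and no number of fetuses. A barcode was a member if it held at least 1000 unique molecular identifiers (UMIs, single counted molecules), at most 20% mitochondrial UMIs, at least 2 UMIs of IL26 and TRDC together, under 5 UMIs of the macrophage genes C1QA, C1QB and C1QC and under 5 UMIs of the Sertoli gene AMH. By this rule 329 of 20825 barcodes were members, with 98 of 6376 at E85, 155 of 7124 at E105 and 76 of 7325 at E125. They made up 1.54% (95% interval 1.25 to 1.87), 2.18% (1.85 to 2.54) and 1.04% (0.818 to 1.30) of the barcodes of these libraries. The barcodes were chosen on their own counts of IL26 and TRDC, so levels of these genes are a description and no finding. With 1 library per stage nothing has a replicate check and no test was run. Intervals are exact at 95% and cover counting error only.

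IL-26 is a secreted cytokine of the IL-10 family that in humans is made mostly by type 17 T cells and related innate lymphocytes and acts on epithelial cells through a receptor of IL20RA and IL10RB, and mice lack the gene. Gamma-delta T cells carry a receptor of a gamma and a delta chain in place of the alpha-beta receptor, arise early in fetal life and are unusually abundant in ruminants. In humans, TRDC transcripts are also found in natural killer cells and other innate lymphocytes, so the RNA alone does not show a gamma-delta receptor at the surface. In the reference gene table of the goat assembly ARS1.2, IL26 lies between IL22 and IFNG, which encode 2 other lymphocyte cytokines.

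The deposited libraries held 7478, 8520 and 8346 barcodes with 45339231, 40741902 and 49692252 UMIs at E85, E105 and E125. Barcodes with AMH made up 40.5% and 30.4% of those kept at E85 and E105 and 1.39% in the library labelled E125. That library also held 77 barcodes with at least 100 UMIs of ZP3, a gene of the egg coat, against 0 at E85 and 0 at E105. Its contents therefore went against a testis label, and differences between it and the other libraries cannot be told apart from that. 1 of the 76 members at E125 was such a ZP3-rich barcode, with 207385 UMIs, 2904 of them ZP3, and it held 34.6% of all member UMIs of the library. Levels at E125 are given without it, over 75 members, which was chosen after seeing the data. The 3 pairs of libraries shared 14, 13 and 9 barcode sequences, and 0 of these were members.

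Members had a median of 6280 UMIs at E85, 4796 at E105 and 4713 at E125, against 4905, 3103 and 3317 UMIs over all kept barcodes. The summed UMIs of IL26 and TRDC had a median of 6, 7 and 7.5 per member and reached 31, 42 and 39. Just inside the rule, 12, 16 and 12 members held exactly 2 such UMIs. Just outside it, 50, 60 and 33 barcodes held exactly 1, and 5, 8 and 3 of these had at least 3 UMIs of CTSW, a protease gene of cytotoxic lymphocytes. Within the members, 8, 11 and 7 of the barcodes at the threshold had at least 1 CTSW UMI, a looser limit than the 3 used just outside it.

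TRDC was the gene that admitted most members. It stood at 1064 CPM (counts of the gene in each 1000000 UMIs of the group, interval 987 to 1146) at E85, 1542 at E105 and 1257 at E125, and was found in 97 of 98, 151 of 155 and 69 of 75 members. IL26 stood at 67.1 CPM (48.8 to 90.1) at E85, 133 (108 to 160) at E105 and 373 (315 to 439) at E125. It was found in 12 of 98 members (12.2%, 6.49 to 20.4), in 37 of 155 (23.9%, 17.4 to 31.4) and in 42 of 76 (55.3%, 43.4 to 66.7), shares that depend on the rule and are given as a description. After every member was thinned to 2000 UMIs, IL26 was found in 10 of 90, 22 of 130 and 32 of 68 members. Of the members with IL26, 11 of 12, 33 of 37 and 36 of 42 also held TRDC, and 86, 118 and 34 members held TRDC only. Outside the rule, IL26 was found in 3 of 2580, 10 of 2167 and 0 of 102 AMH barcodes and TRDC in 18, 17 and 1 of them. The AMH barcodes were deep, with medians of 10413.5, 9893 and 12735.5 UMIs. The part of RNA free in the suspension in the member counts was not tested.

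**Figure D1:**
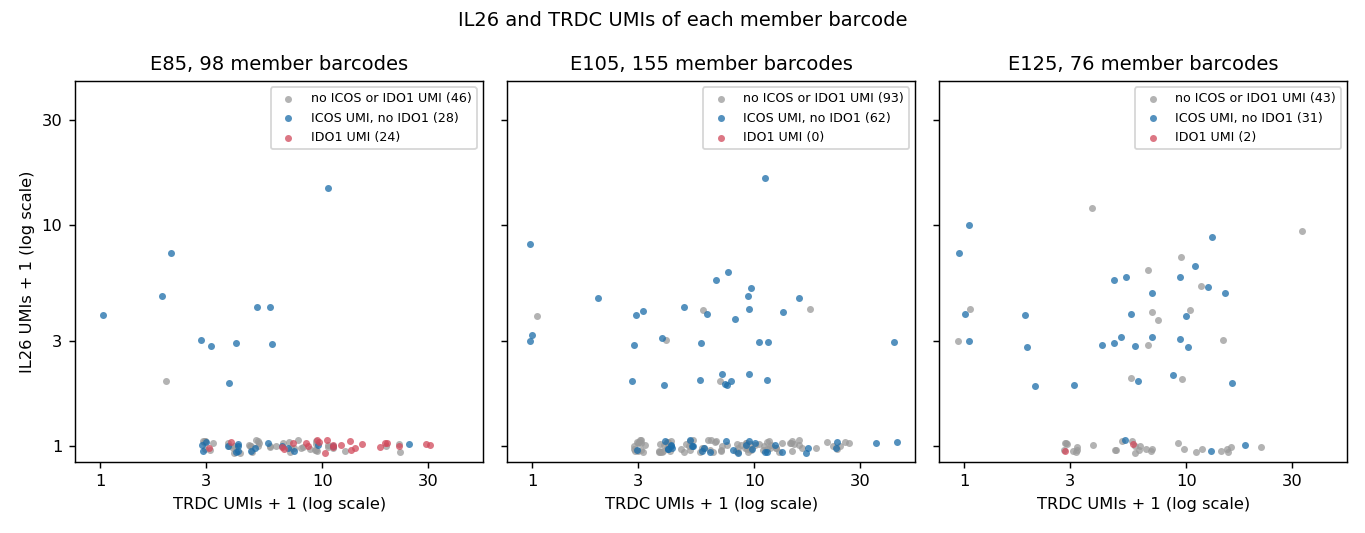
IL26 UMIs (vertical) against TRDC UMIs (horizontal) of each member barcode, both plus 1 on log axes with a little jitter, by library, coloured by whether an ICOS or IDO1 UMI was found. Members with IL26, which the rule used, number 12 of 98, 37 of 155 and 42 of 76, and the 24 IDO1 barcodes of E85 all lie on the TRDC axis.

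The members were set against other CTSW lymphocytes of the same library, that is, barcodes outside the rule with at least 3 CTSW UMIs and the same limits on C1Q genes and AMH. There were 143, 338 and 23 of these at E85, E105 and E125, with median depths of 4789, 5156 and 4570 UMIs. Of all barcodes with at least 3 CTSW UMIs in these classes, members made up 30.6% (24.4 to 37.4), 27.6% (23.6 to 31.9) and 71.25% (60.05 to 80.8). CTSW was found in 79, 140 and 65 members, and 63, 129 and 57 had at least 3 UMIs of it. At E125 this share and these counts include the ZP3-rich barcode, which held 3 CTSW UMIs.

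Most members carried genes of lymphocytes. The 16 genes of CD3 and T cell receptor signalling, a list chosen with earlier results known, summed to 919, 1003 and 794 CPM in members at E85, E105 and E125, against 1058, 1175 and 940 CPM in other CTSW lymphocytes. In AMH barcodes the same list stood at 14.3, 14.1 and 9.52 CPM and in C1Q barcodes at 86.9, 12.3 and 13.7 CPM. LCK, the kinase that starts T cell receptor signalling, was found in 63 of 98, 93 of 155 and 48 of 75 members. THEMIS, needed for T cell selection in the thymus, was found in 40, 71 and 19 members, and BCL11B, a transcription factor of T cell commitment, in 35, 55 and 34. CD247, the CD3 zeta chain, was found in 22, 46 and 16. CD3 chains were sparse, with CD3G in 13, 27 and 6 members, CD3E in 2, 7 and 2 and CD3D in 1, 4 and 0. CD3 chains were also sparse in other CTSW lymphocytes, with CD3G in 23 of 143, 56 of 338 and 2 of 23 and CD3E in 14, 24 and 0. Of the 8 receptor constant genes listed only TRDC had a symbol in the files, so gamma, alpha and beta chains are not analysed here.

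The members were few in genes that divide conventional T cells. CD4, the co-receptor of helper T cells, was found in 0, 1 and 0 members and CD8A, the co-receptor of cytotoxic T cells, in 4, 10 and 1. ICOS, the inducible co-stimulator named as a marker of these cells, was found in 28 of 98, 62 of 155 and 31 of 75 members, which is 28.6%, 40.0% and 41.3%. In other CTSW lymphocytes it was found in 37 of 143, 65 of 338 and 4 of 23, and in AMH barcodes in 18 of 2580, 12 of 2167 and 0 of 102. ICOS was thus a marker of some members and was shared with lymphocytes outside the rule.

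A minority of members looked unlike lymphocytes. No CTSW UMI was found in 45 of the 329, and 22 of these had at least 2 UMIs of other lymphocyte genes. Among the 45, 11 had at least 3 UMIs of AIF1 and CLEC9A together, genes of myeloid and dendritic cells. Of the rest, 10 had at least 3 of MZB1, BLNK and JCHAIN, genes of B cells and antibody-secreting cells. Over all members, AIF1 was found in 5, 7 and 2 barcodes and CLEC9A in 4, 5 and 2. The 16 macrophage and monocyte markers summed to 618, 384 and 375 CPM in members, with 12, 10 and 12 of the genes at 0, against 113, 68.6 and 17.9 CPM in other CTSW lymphocytes. The 8 dendritic cell markers summed to 134, 116 and 189 CPM in members, with 2, 3 and 4 at 0, against 21.6, 7.45 and 0 CPM in other CTSW lymphocytes. Stromal markers summed to 279, 286 and 761 CPM in members over 11 genes, with 2, 1 and 1 at 0, against 310, 279 and 161 CPM. Lymphocyte genes were found in the bulk of members, while the genes measured here did not set them apart from other CTSW lymphocytes as innate-like. No doublet caller was run.

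**Figure D2:**
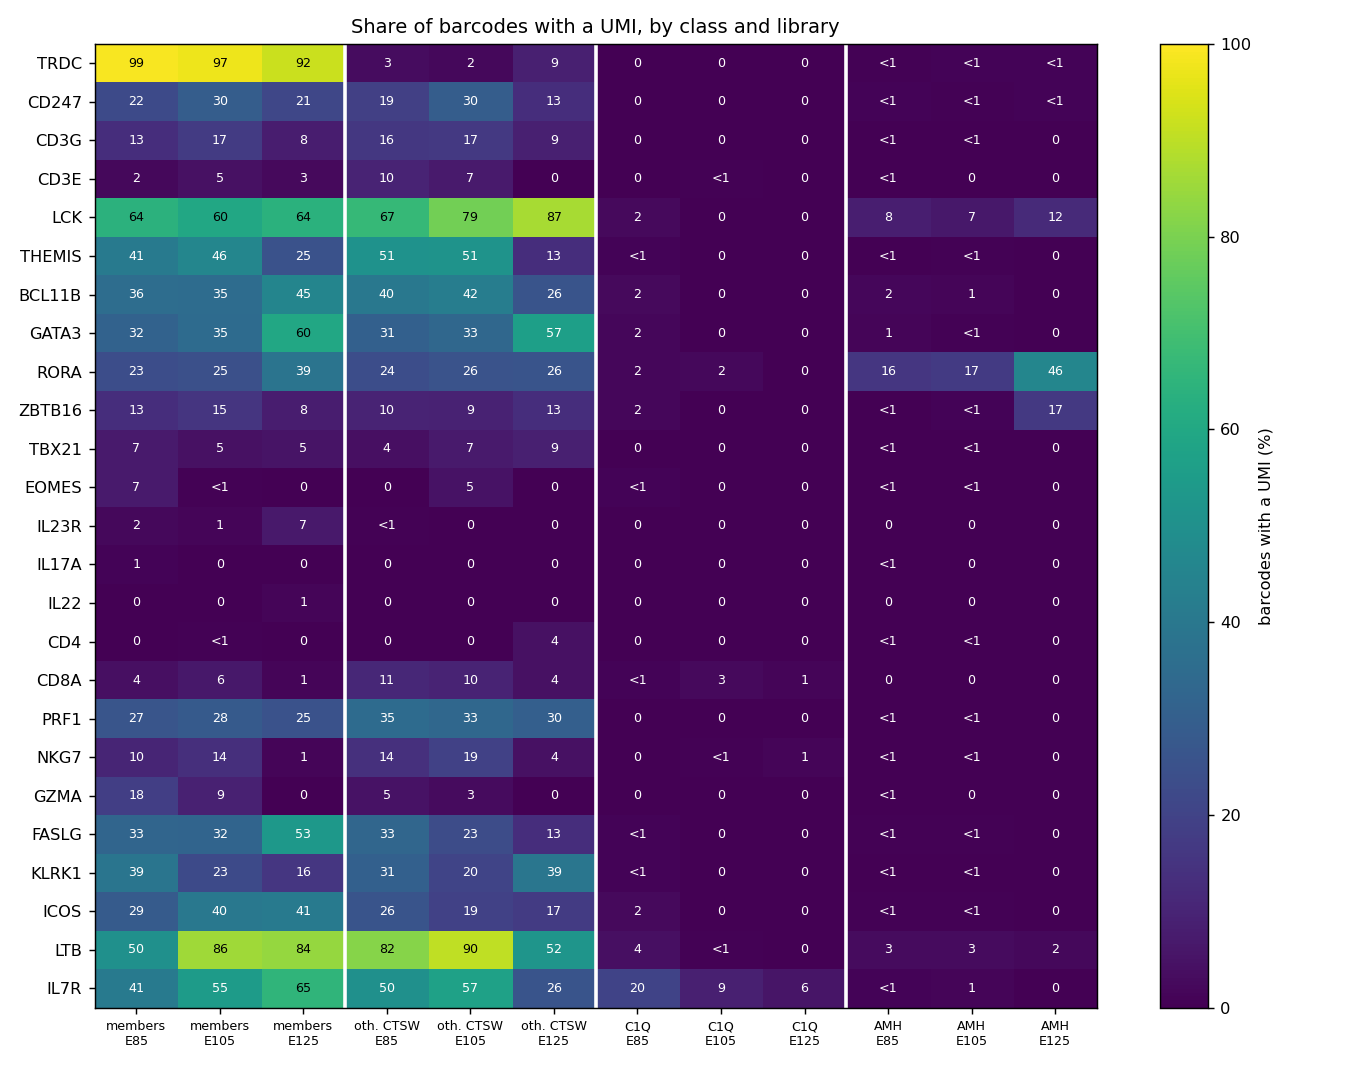
Share of barcodes with at least 1 UMI of each gene (rows) in members (at E125 without the ZP3-rich barcode), other CTSW lymphocytes (oth. CTSW), C1Q barcodes and AMH barcodes of each library (columns), as a percentage given in each cell. TRDC, which the rule used, fills the member columns, LCK, THEMIS and BCL11B are shared with other CTSW lymphocytes, and IL17A, IL22 and CD4 are at or near 0 in all columns.

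Of the type 17 programme that accompanies IL26 in humans, the receptor and cytokine genes named here were found in few members. These counts are over all members, and IL23R and IL1R1 are given below for members with and without IL26. IL23R, the receptor of the cytokine that maintains type 17 cells, was found in 2, 2 and 5 members and in 1, 0 and 0 other CTSW lymphocytes. IL17A, the signature cytokine, was found in 1, 0 and 0 members, IL22 in 0, 0 and 1, and the chemokine receptor CCR6 in 0 of 98, 0 of 155 and 0 of 75. For IL17A at E105, a count of 0 in 155 barcodes allows a share of up to 1.94% with a UMI. IL1R1, the receptor of IL-1, was found in 4, 6 and 7 members, against 0, 2 and 2 other CTSW lymphocytes and 11, 12 and 2 AMH barcodes.

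Regulators of other helper and innate programmes were found as well. GATA3, a regulator of type 2 and other helper programmes, stood at 68.6 CPM (50.05 to 91.8) in members at E85, 119 (96.1 to 145) at E105 and 222 (178 to 274) at E125, against 80.9, 80.3 and 295 CPM in other CTSW lymphocytes. ZBTB16, which encodes PLZF of innate-like T cells, was found in 13, 24 and 6 members, against 14 of 143, 32 of 338 and 3 of 23. RORA was found in 23, 38 and 29 members, and AMH barcodes also held it, in 16.0%, 16.8% and 46.1%. TBX21, a regulator of type 1 responses, was found in 7, 7 and 4 members. The 14 listed transcription factors summed to 537, 593 and 769 CPM in members and to 593, 594 and 824 CPM in other CTSW lymphocytes.

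Cytotoxic genes other than CTSW differed in how often they were found. Of 27 listed natural killer and cytotoxic genes 15 had a symbol in the files, and GZMB, GNLY and KLRD1 were among those without one. PRF1, the pore protein of killer cells, stood at 76.2, 83.8 and 61.3 CPM in members and at 105.2, 96.3 and 71.6 CPM in other CTSW lymphocytes. FASLG, the death ligand, was found in 32, 50 and 40 members. NKG7, a granule protein, was found in 10, 21 and 1. NCR1, a defining receptor of natural killer cells, was at 0 in all 3 libraries and TYROBP, an adaptor of their receptors, was found in 1, 0 and 0 members. IFNG was found in 10, 25 and 4 members, against 32 of 143, 78 of 338 and 4 of 23. At E125 49 of its 56 UMIs lay in 1 barcode.

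Within the IL-10 family, IL10 itself was found in 16, 1 and 0 members. The receptor chain IL20RA was found in 0, 1 and 0 members and IL10RA, the ligand-binding chain for IL-10, in 5, 10 and 5. In barcodes outside the classes named here, which are far more numerous, IL20RA had 100, 150 and 76 UMIs, given as raw sums without scaling. IL10RB, the other chain of the IL-26 receptor, had no symbol in the files.

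Against other CTSW lymphocytes, members at E85 had 246 of 3610 genes at least 2-fold higher (6.81%) and 132 at least 2-fold lower (3.66%). Without the 24 members that held IDO1, 143 of 3188 were higher (4.49%) and 179 lower (5.61%). At E105 181 of 4769 genes were at least 2-fold higher (3.80%) and 150 lower (3.15%). Of the CD3 and T cell receptor list, 0 of 11 tested genes were higher and 2 (ZAP70 and CD6) lower at E85, and 0 of 16 were higher or lower at E105. Its median log2 ratio was -0.31 and -0.13, beside 0.07 and 0.07 over all genes. Of the NK and cytotoxic list, KLRF1 and GZMA were higher among 7 genes at E85, and GZMA alone at E105. At E85 GZMA was found in 14 of the 24 IDO1 members and 4 of the other 74, and KLRF1 in 7 and 5. Co-stimulation and tissue retention genes were mixed, with 2 higher and 5 lower of 13 at E85 and 2 higher (ICOS and RGS1) and 2 lower of 14, LAG3 among them, at E105. Of 12 antigen presentation and interferon genes at E85, CD74 and IRF7 were higher and MX1 and IFIT3 lower, and of 13 at E105 CD74 was higher and 0 lower. In members with at least 3 CTSW UMIs CD74 was at 0 UMIs in both libraries.

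C1R, PLBD1, CTSS, AIF1, CLEC9A, DERL3, HLA-DRA and CST3 were among the 12 genes ranked highest in members, with HSPB1, CKB, OCIAD2 and VIM. Several of the first are genes of myeloid and antigen-presenting cells, and they lay in few members. The comparison was therefore repeated with the requirement of at least 3 CTSW UMIs on both sides, which leaves 63 members at E85 and 129 at E105. AIF1, CLEC9A, HLA-DRA, C1R and CST3 were then lower in members, so their higher levels rested on members with little CTSW. With this limit 170 of 3268 genes were at least 2-fold higher (5.20%) and 224 lower (6.85%) at E85, and 130 of 4643 higher (2.80%) and 209 lower (4.50%) at E105.

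HSPB1, CKB and OCIAD2 stayed higher with the CTSW limit in both libraries. HSPB1, a small heat shock protein, stood at 435 CPM in members and 66.1 in other CTSW lymphocytes at E85, a ratio of 6.59 (4.80 to 9.19). At E105 it stood at 267 and 46.8 CPM, a ratio of 5.70 (4.40 to 7.44). AMH barcodes held HSPB1 at 349 and 286 CPM in these libraries, and its part in the member level was not tested. CKB, the brain-type creatine kinase, stood at 115 CPM in members against 20.2 at E85 (ratio 5.67, 3.15 to 10.8) and 83.6 against 12.8 at E105 (6.55, 4.00 to 11.03), and at 2.17 and 1.32 CPM in AMH barcodes. OCIAD2, a mitochondrial protein, had ratios of 3.14 (2.67 to 3.70) and 2.40 (2.13 to 2.70). ARHGAP10, a GTPase-activating protein, had ratios of 2.91 and 2.46. KLRK1, which encodes the activating receptor NKG2D, had smaller ratios of 1.78 (1.31 to 2.42) and 1.59 (1.16 to 2.15). As given below, KLRK1 was found in most IDO1 members of E85, in a minority of the others and in hardly any IL26 members. Its ratio without the IDO1 members is not given. EIF4A1, SRI, PKM, ATP5MC3, PSMA5, NT5C and CWC27 had ratios between 1.28 and 1.82.

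Lower genes were led by NUCB2, whose product is cut to the peptide nesfatin. With the CTSW limit it stood at 141 CPM in members and 351 in other CTSW lymphocytes at E85 (ratio 0.401, 0.301 to 0.529), and at 161 and 357 CPM at E105 (0.452, 0.366 to 0.554). CD84, an adhesion receptor of the SLAM family, had ratios of 0.208 (0.118 to 0.347) and 0.648 (0.512 to 0.813). CXCR3, a chemokine receptor of type 1 lymphocytes, had ratios of 0.397 and 0.651. LIN28B, an RNA-binding protein of fetal blood development, had ratios of 0.612 and 0.626. F2R, PDCD4, GIT2, TIMP1, RGS10 and SYNE2 were lower as well, with ratios between 0.304 and 0.712. AMH barcodes held NUCB2 at 164 and 225 CPM.

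Members with IL26 were set against members without it. The 12, 37 and 42 members with IL26 were compared with the 86, 118 and 33 members with TRDC only, the median depths being 6352, 5047 and 4957 UMIs against 6022, 4472.5 and 3930. The groups were formed after seeing the data and the genes were ranked on E105 and E125, so E85 was not used to choose them. At least 2-fold higher in IL26 members were 117 of 2228 genes at E85 (5.25%), 73 of 2538 at E105 (2.88%) and 56 of 1598 at E125 (3.50%), and 481 (21.6%), 354 (13.9%) and 292 (18.3%) were lower. At E85 the TRDC-only group includes the 24 members with IDO1, in which IL7R, ICOS and LTB are at 0, so values without them are given below. IL7R, the receptor of the lymphocyte survival factor IL-7, stood at 979 CPM in IL26 members against 174 in TRDC-only members at E85 (ratio 5.63, 4.08 to 7.72), at 969 against 233 CPM at E105 (4.15, 3.32 to 5.21) and at 685 against 182 CPM at E125 (3.77, 2.54 to 5.78). IL7R was found in 10 of 12, 34 of 37 and 36 of 42 IL26 members and in 30 of 86, 51 of 118 and 13 of 33 TRDC-only members.

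ICOS was found in 11, 32 and 28 IL26 members, against 17, 30 and 3 TRDC-only members. Its ratios were 10.2 (6.29 to 16.7), 3.81 (2.64 to 5.54) and 3.98 (1.93 to 9.21). LTB, the lymphotoxin beta chain that innate lymphocytes use to organise lymphoid tissue, was found in 11, 36 and 42 IL26 members and in 38, 97 and 21 TRDC-only members, with ratios of 5.99, 2.59 and 2.07. Without the IDO1 members the E85 ratios were 3.17 (2.30 to 4.35) for IL7R, 5.76 (3.54 to 9.42) for ICOS and 3.37 for LTB. OCIAD2 had ratios of 4.48, 4.98 and 4.63 and HSPB1 of 6.81, 7.70 and 4.47. GCSAML, TOX2, CPD and REV3L completed the list with CRABP1, a retinoic acid carrier, which had ratios of 10.3, 5.18 and 4.43. REV3L had a ratio of 1.25 (0.318 to 3.59) at E85. Without the IDO1 members OCIAD2 had a ratio of 7.16 at E85, HSPB1 of 5.24, GCSAML of 9.50 and CRABP1 of 5.81, and the intervals of TOX2 (4.75, 0.636 to 35.5), CPD and REV3L included 1.

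The differences remained at equal depth. With members thinned to 2000 UMIs, ICOS was found in 8 of 12, 14 of 29 and 18 of 41 IL26 members, against 4 of 78, 10 of 101 and 2 of 27 TRDC-only members. IL7R was found in 10, 21 and 31 IL26 members and in 12, 29 and 6 TRDC-only members, and LTB in 11, 26 and 36 against 25, 64 and 15. These values describe members grouped by IL26 before thinning.

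KLRK1 ran the other way. It was found in 0 of 12, 1 of 37 and 0 of 42 IL26 members, against 38 of 86, 34 of 118 and 12 of 33 TRDC-only members. With the limit of 3 counts for a zero, KLRK1 was at least 4.11-fold lower at E85 (at least 2.95-fold without the IDO1 members) and at least 16.9-fold lower at E125, and at E105 its ratio was 0.0456 (0.00114 to 0.262). IFNG was found in 0, 2 and 1 IL26 members and in 10, 23 and 3 TRDC-only members. AIF1, CLEC9A, C1R, CXCL9, HLA-DRA, CST3, CTSS, CXCL10 and LGALS1 were the other lower genes, though at E85 the intervals of CXCL10 and LGALS1 included 1, and AIF1, CLEC9A and CXCL9 were at 0 in IL26 members of all 3 libraries. The members with AIF1 were thus all in the TRDC-only group.

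Further genes were looked up by name after seeing the values above. FASLG was found in 7, 18 and 33 IL26 members and in 25, 32 and 7 TRDC-only members. DPP4, the surface protease CD26, was found in 8, 9 and 21 against 10, 9 and 8. KIT, the stem cell factor receptor that marks many innate lymphoid cells, was found in 3, 2 and 14 against 4, 1 and 3. GATA3 was found in 8, 18 and 30 against 23, 36 and 15. IL1R1 was found in 3 of 12, 3 of 37 and 6 of 42 IL26 members, against 1 of 86, 3 of 118 and 1 of 33 TRDC-only members. For IL23R the counts were 1, 1 and 4 IL26 members against 1, 1 and 1 TRDC-only members. CD3G did not separate the groups in one direction, with 0, 8 and 2 IL26 members against 13, 19 and 4 TRDC-only members.

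**Figure D3:**
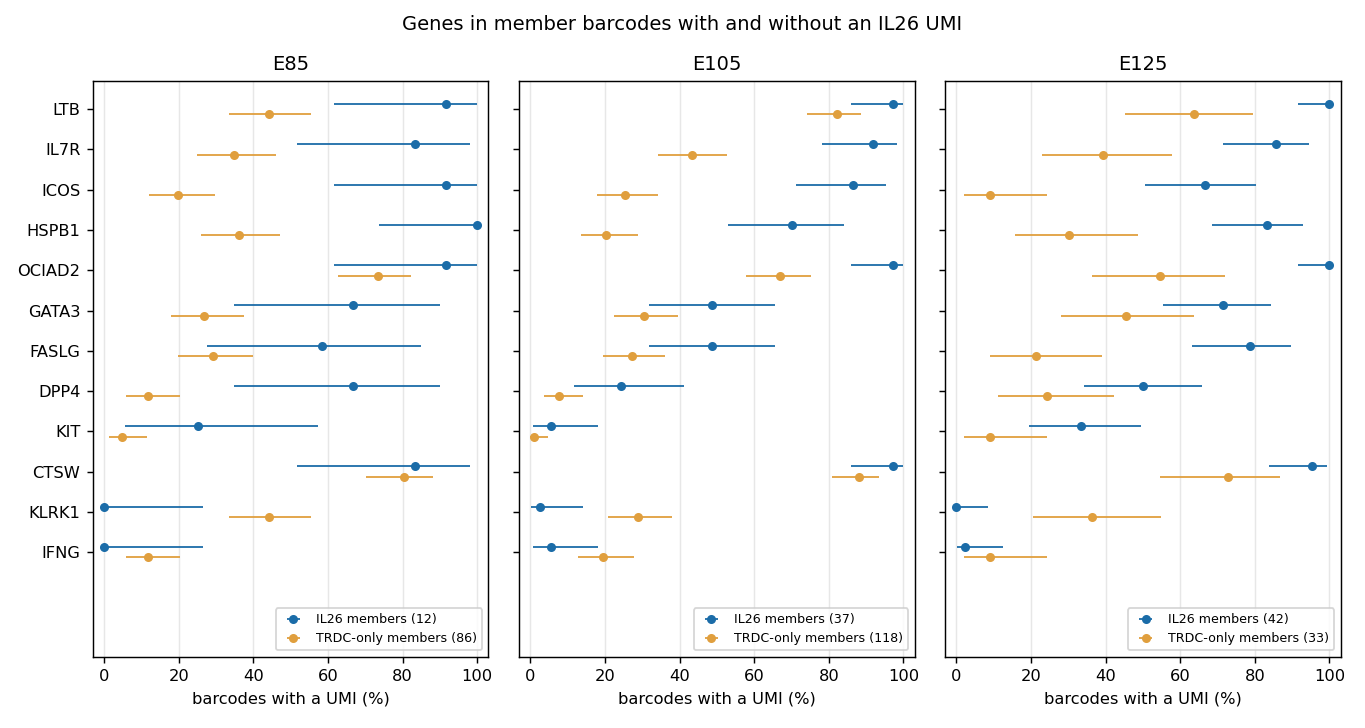
Share of barcodes with a UMI (horizontal, %) for 12 genes in members with IL26 (blue) and members with TRDC only (orange), by library, with exact 95% intervals. LTB, IL7R, ICOS, HSPB1 and OCIAD2 lie further right in IL26 members of each library, and KLRK1 is at 0 of 12, 1 of 37 and 0 of 42 of them.

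At E85 some members carried IDO1, the enzyme that breaks down tryptophan and restrains T cells. IDO1 had 352 UMIs in 24 of 98 members, with a median of 11.5 and a maximum of 85 UMIs per positive barcode, and none in 143 other CTSW lymphocytes, which makes it at least 133-fold higher in members. It was found in 3 of 124 C1Q barcodes and 1 of 2580 AMH barcodes of that library, and in 23 of 3341 barcodes outside all classes named here. At E105 it was at 0 in 155 members although 46 of 4243 barcodes outside the classes held it, and at E125 2 of 75 members held 3 UMIs. 0 of the 24 IDO1 members held IL26, so by the rule all 24 held at least 2 UMIs of TRDC.

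IDO1 members had 285 of 2227 genes at least 2-fold higher than the other members (12.8%) and 205 lower (9.21%), and the groups were formed after seeing the data. ITGAD, the alpha D integrin, was found in 22 of the 24 and in 1 of the other 74 members. IL10, a cytokine that dampens immune responses, was found in 16 and 0, which is 566 CPM and at least 75.3-fold higher. PSTPIP2, an adaptor of the actin cytoskeleton, was found in 20 and 0. CRTAM, an adhesion receptor of activated cytotoxic lymphocytes, stood at 897 CPM against 27.5 CPM (ratio 32.6, 17.9 to 66.2). In CRTAM 2 barcodes held 138 of the 230 UMIs, and without them the ratio was 14.7. ARHGAP5 had a ratio of 17.2 (12.5 to 24.3), NCF1, a subunit of the phagocyte oxidase, of 23.2 (10.8 to 59.0) and FGR, a Src-family kinase, of 15.1 (7.88 to 32.5). COTL1, an actin-binding protein, had a ratio of 9.97 and PTPN6, the phosphatase SHP-1, of 8.48. FHL3, FGD4 and NR4A2 had ratios between 12.6 and 22.6, and that of NR4A2 was 8.67 instead of 13.1 without its 2 highest barcodes. IDO1 members were deeper, with a median of 8701 UMIs against 5271.5, so shares with a UMI favour them while CPM do not depend on depth in that way.

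Lymphocyte genes in the IDO1 members included LCK in 21 of 24 against 42 of 74, IL2RB, a chain of the IL-2 and IL-15 receptor, in 24 against 38, CTSW in 22 against 57, and KLRK1 in 21 against 17. GZMA, a granule protease, was found in 14 against 4 and CSF1, the growth factor of macrophages, in 13 against 6. PRF1 was found in 12 against 14, EOMES in 5 against 2 and TBX21 in 5 against 2. BCL11B was lower, at 27.3 CPM against 118 CPM. LTB, IL7R, ICOS, RGS18, ZBTB16 and KLRG1 were at 0 in all 24, against 49, 40, 28, 21, 13 and 9 of the other 74. LTB was thereby at least 93.2-fold lower and IL7R at least 36.4-fold lower in IDO1 members. AIF1, CLEC9A and C1R, genes of myeloid and antigen-presenting cells, were also at 0 in the 24, as was FLT3. The IDO1 set and the IL26 set therefore did not share a barcode, and at E85 the remaining 62 members held TRDC with neither.

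**Figure D4:**
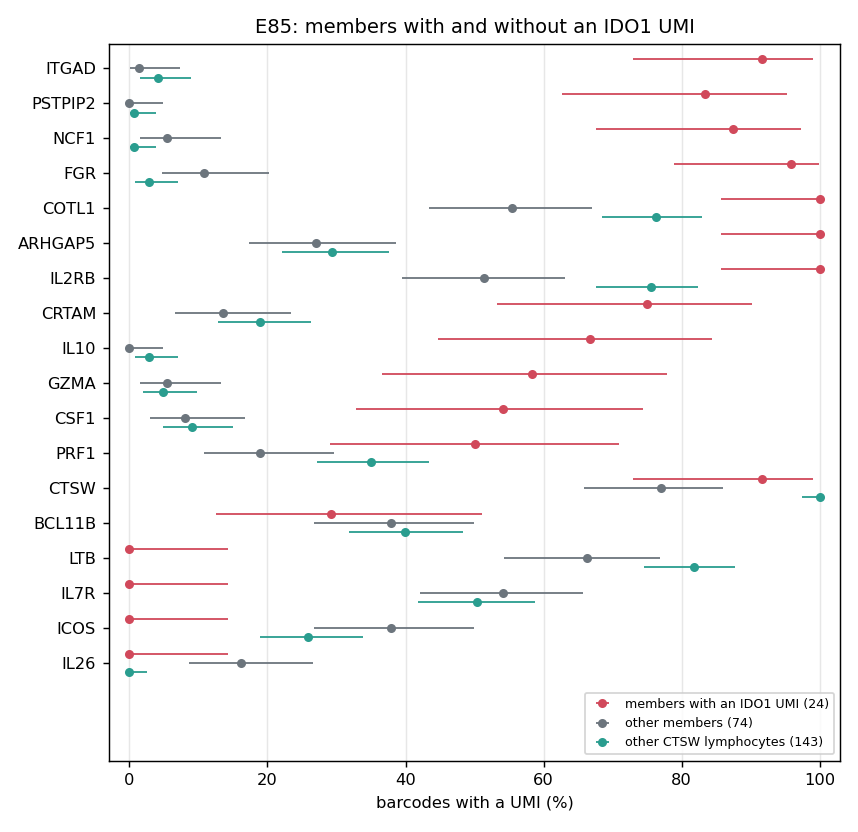
Share of E85 barcodes with a UMI (horizontal, %) in the 24 members with IDO1 (red), the other 74 members (grey) and 143 other CTSW lymphocytes (green), with exact 95% intervals. ITGAD, PSTPIP2, NCF1 and FGR are found in most IDO1 members and few others, while LTB, IL7R, ICOS and IL26 are at 0 of 24.

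Between stages, members at E105 had 195 of 3742 genes at least 2-fold higher than members at E85 (5.21%) and 214 at least 2-fold lower (5.72%), with a median log2 ratio of -0.06 over all genes. KLRG1, an inhibitory receptor of mature lymphocytes, stood at 121 CPM at E105 against 13.7 CPM at E85, a ratio of 8.84 (4.47 to 19.9). Other CTSW lymphocytes showed 163 against 59.3 CPM. TOX2, a factor of T and innate lymphocyte development, stood at 53.8 against 9.15 CPM (ratio 5.88, 2.49 to 16.9), and at 20.2 against 17.5 CPM in other CTSW lymphocytes. CTSW stood at 5945 against 2456 CPM (2.42, 2.29 to 2.56), and at 5484 against 4107 CPM in other CTSW lymphocytes, where it was part of the rule. Without the IDO1 members KLRG1 had a ratio of 5.38 (2.72 to 12.1), TOX2 of 3.58 (1.52 to 10.3) and CTSW of 1.85 (1.73 to 1.96).

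JUN, an immediate early transcription factor, stood at 393 CPM in members at E105 against 119 at E85 (ratio 3.30, 2.57 to 4.29). It was at 391 against 104 CPM in other CTSW lymphocytes and at 340 against 102 CPM in AMH barcodes, so the same difference appeared in unrelated cells of these libraries. Over 13 immediate early and handling genes, 4 were higher and 1 lower, with a median log2 ratio of 0.70, and its relation to sample handling was not tested. STK17A, a death-associated kinase, stood at 375 against 120 CPM (3.11), and likewise at 373 against 113 CPM in other CTSW lymphocytes. PHGDH, the first enzyme of serine synthesis, had a ratio of 6.42 (2.74 to 18.4), with AMH barcodes at 548 and 700 CPM at E105 and E85. S100A10, DNAJC1, CD84 and SMAP1 had ratios between 3.12 and 3.95, and that of CD84 was 1.96 (1.31 to 3.04) without the IDO1 members.

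The 10 genes ranked lowest at E105 included IDO1 and genes that were high in the IDO1 members of E85. IDO1 was at least 143-fold lower, and IL10, PSTPIP2, ITGAD, NCF1, ARHGAP5, FGR, NDFIP2, CRTAM and PTPN6 had ratios between 0.00565 and 0.219. Without the 24 IDO1 members of E85, 211 of 3318 genes were higher (6.36%) and 150 lower (4.52%) at E105. IL10 and PSTPIP2 then had 1 UMI each at E105 against 0 at E85, ITGAD had 5 against 1, and CRTAM had a ratio of 2.23 (1.14 to 4.75). The intervals of NCF1, ARHGAP5, FGR and PTPN6 then included 1, and NDFIP2 was still lower at 0.256 (0.142 to 0.450). Of the CD3 and T cell receptor list, 1 of 11 genes (CD6) was higher and 0 lower. Of the co-stimulation list, CD69, ITGA1 and CXCR3 were higher and CXCR4, TNFRSF9 and ITGAE lower among 13.

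In the library labelled E125, 1238 of 4026 genes were at least 2-fold higher than at E85 (30.8%) and 371 lower (9.22%), and without the ZP3-rich barcode 547 of 3295 were higher (16.6%) and 374 lower (11.4%). The mean of CPM over single barcodes, which gives that barcode little weight, gave 707 higher genes of 1212 called (58.3%), against 76.9% higher in the sum over all members. In the values without that barcode, KLRG1 stood at 194 CPM, a ratio of 14.1 (7.07 to 32.1) to E85, and TOX2 at 156 CPM, a ratio of 17.03 (7.39 to 48.2). TOX2 was found in 28 of 42 IL26 members there and in 6 of 33 TRDC-only members, and AMH barcodes of that library also held TOX2, at 121 CPM. SMAP1, DNAJC1, JUN and STK17A had ratios of 8.12, 7.18, 6.98 and 4.52. The E85 side of these ratios includes the 24 IDO1 members, in which KLRG1 was not found. Leaving them out lowered the KLRG1 and TOX2 ratios of E105 to E85, and E125 ratios without them are not given here. GATA3, RORA and KIT were at least 2-fold higher at E125 as well, and THEMIS and SH2D1A lower. GATA3 was also higher at E125 than at E85 in other CTSW lymphocytes. At E125 GATA3 was found in 30 of 42 IL26 and 15 of 33 TRDC-only members, and KIT in 14 and 3. IL26 members made up 12.2% of members at E85 and 55.3% at E125, and the part of this mix in the ratios was not tested. Stromal markers had a median log2 ratio of 1.58 over 5 genes, so signal of other cells also differed, and its part in these ratios was not tested. S100A10, CD84 and CTSW, higher at E105, had ratios of 0.628, 0.919 and 0.792 at E125.

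**Figure D5:**
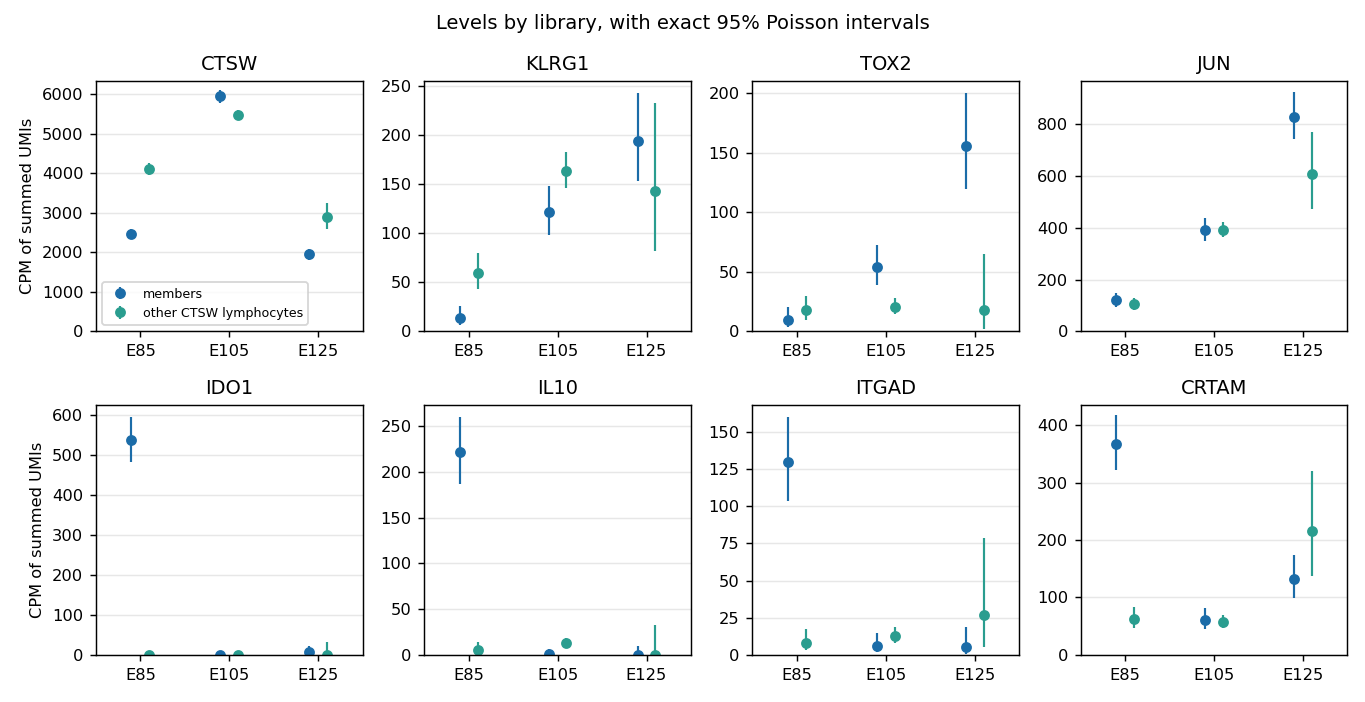
Levels (CPM of summed UMIs, linear axes from 0) of 8 genes in members (blue, at E125 without the ZP3-rich barcode) and other CTSW lymphocytes (green) by library, with exact 95% Poisson intervals. IDO1, IL10 and ITGAD are high in members of E85 alone among these groups, KLRG1 and JUN are lowest at E85 in both groups, and TOX2 reaches 156 CPM in members at E125.

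Dividing cells were present among members of every library. At least 3 UMIs of 10 mitosis genes were found in 13 of 98 members (13.3%, 7.26 to 21.6), 14 of 155 (9.03%, 5.03 to 14.7) and 10 of 75 (13.3%, 6.58 to 23.2). Other CTSW lymphocytes gave 20 of 143, 23 of 338 and 0 of 23, and AMH barcodes 226 of 2580, 206 of 2167 and 21 of 102. At 2000 UMIs per barcode the member counts were 5 of 90, 7 of 130 and 4 of 68, against 13 of 117, 13 of 308 and 0 of 23 in other CTSW lymphocytes. The intervals of members and other CTSW lymphocytes overlapped in each library. In summed levels against other CTSW lymphocytes, 7 of 15 tested S phase and mitosis genes lay above a ratio of 1 at E85 and 17 of 17 at E105. The median log2 ratios of this list were -0.20 and 0.35, beside 0.07 and 0.07 over all genes. BUB1 was at least 2-fold lower at E85, and RRM2, CCNB2 and AURKA at least 2-fold higher at E105. TOP2A, which untangles DNA in dividing cells, was found in 0, 3 and 2 IL26 members and in 10, 15 and 7 TRDC-only members. Among members with a CTSW UMI these counts were 0, 3 and 1 IL26 members and 7, 14 and 6 TRDC-only members.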

How the data were processed

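The deposited matrices hold raw UMI counts per feature and barcode, filtered by the authors with Cell Ranger, version 6.0.0 per the file headers and 3.1 per the submitters' processing notes. Build and annotation: not given in the sources used here. Of 27271 features 16616 had a symbol, and of 372 listed genes 300 were found. Barcodes were filtered and members chosen as stated, with 13 mitochondrial genes. UMIs were summed per group and library and given as CPM, that is, in each 1000000 UMIs. Exact 95% intervals are Clopper-Pearson (shares), Poisson (levels) and, for ratios, from splitting the summed UMIs of both groups binomially. For a bound, 0 counts were set to 3. Ratios were counted for genes with a symbol and at least 20 UMIs over both groups. A log2 ratio has a prior of 0.5 UMI. Python 3.11.15, numpy 2.4.6, scipy 1.17.1 and pandas 2.3.3 were used.

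Members and gene lists were chosen with earlier results of these data known. Named genes were IL26, TRDC and ICOS, then the 12 genes with the highest and the 12 with the lowest interval bound over E85 and E105 against other lymphocytes, and the 10 in each direction between stages, at 50 CPM or more, with up to 4 genes of each list. Ribosomal, mitochondrial and haemoglobin genes were left out. The planned group of other lymphocytes held only 15, 31 and 1 cytotoxic and 5, 17 and 1 other T cell barcodes, so the CTSW lymphocytes, the limit of 3 CTSW UMIs and the IL26 and IDO1 groups were chosen after seeing the data, as were other genes named with them. Alternatives covered scaling, filters, the rule, the mitochondrial limit, thinning and leaving out the deepest 6% of barcodes in place of a doublet caller. On simulated Poisson counts for members at E105 against E85 with 3742 genes, 98% of 200 genes changed 4-fold were called and 3.67% of the unchanged. Results for a few genes are not reported here.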

Additional observations from a re-analysis of the deposited data

Results flagged for a closer look

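Some genes lay on opposite sides of 1 at E85 and E105 when members were compared with other CTSW lymphocytes, with intervals clear of 1 in both libraries. The difference between the libraries was not tested. IL10 had log2 ratios of 5.19 at E85 and -2.80 at E105, COTL1 of 1.58 and -0.49, and FHL3 of 1.57 and -0.76, and all 3 are genes of the IDO1 members of E85. LCK had 0.27 and -0.43. REV3L had -0.86 and 0.84, and CENPF, a gene of mitosis, -0.30 and 0.48. At E105 7 barcodes above the limit of 20% mitochondrial UMIs also met the rule on IL26 and TRDC and were not used.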

How the results depend on the processing

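No paired analysis was possible because each stage is 1 library. The share of members at E85, E105 and E125 was 2.32%, 3.02% and 1.49% with 1 UMI of IL26 and TRDC as the minimum, 0.549%, 1.12% and 0.491% after thinning to 1000 UMIs, and 0.251%, 0.674% and 0.655% by IL26 alone. E85 gave 1.24% with a CTSW UMI required. Genes at least 2-fold higher in members than in other CTSW lymphocytes numbered 74 at E85 and 47 at E105 with at least 50 UMIs per gene and 1109 and 1193 with at least 1. Without IDO1 members E85 gave 143, with 179 lower. Genes 2-fold different between E105 and E85 numbered 117 and 1762 under these filters. Between E125 and E85 they numbered 753 and 3705, 871 with a minimum of 3 UMIs in the rule, 921 without the ZP3-rich barcode, and, also without it, 818 with a CTSW UMI and 688 without IDO1 members. The minimum of 3 UMIs also leaves out the ZP3-rich barcode, which held 2 UMIs of TRDC. For E105 against E85, list medians of at least 1 on the log2 scale numbered 2 without a filter on low counts and 0 with it.

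With at least 3 CTSW UMIs in both groups, log2 ratios turned to -0.90 for C1R, -5.20 for AIF1, -3.40 for CLEC9A, -2.55 for HLA-DRA and -1.80 for CST3 at E85. At E105 they turned to -1.04 for C1R, -0.041 for CTSS, -2.68 for AIF1, -2.79 for CLEC9A, -0.30 for DERL3, -2.68 for HLA-DRA and -0.69 for CST3. Without IDO1 members, E105 against E85 turned to 0.58 for IL10, 0.58 for PSTPIP2, 0.87 for ITGAD and 1.10 for CRTAM. The cause was not tested. Of the values of single genes and list medians under all alternatives, 547 stayed near the reported value, 58 moved further with the same direction or no call, and the 16 above turned.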
